A study of Mus musculus with 10 samples.

Results

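The SLAM family comprises the immunoglobulin-type surface receptors from which the sorting code for mouse hematopoietic stem cells (HSCs) takes its name. Its members here were picked by gene symbol, with earlier results of these data known. They are the receptors Slamf1, Cd48, Cd84, Ly9, Slamf6, Slamf7, Slamf9 and Cd244a, and the adaptor Sh2d1a. These make 9 of the 26146 genes in the count table. RNA with polyA tails was sequenced in bulk from bone marrow HSCs of 5 CTL and 5 CKO mice on the C57BL/6J background. CTL mice carried 2 floxed copies of Cited2 (Cited2 fl/fl) without Cre, and the labels call them wildtype. CKO mice were Cited2 fl/fl;Vav-iCre, in which Cre recombinase driven by the Vav promoter deletes Cited2, a transcriptional co-regulator, throughout the blood system. All mice were young adults. In both genotypes the sorted cells were Lin- Sca1+ Kit+ (LSK) and, by antibody staining, CD48- and CD150+. The comparison asked whether the RNAs of the receptors behind that gate, and of their relatives, differed after loss of Cited2.

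SLAM receptors sit on blood cells and bind mostly to themselves on neighbouring cells, with the exception of CD48 and CD244, which bind each other. The cytoplasmic tails of many SLAM receptors recruit SAP, the small SH2-domain adaptor encoded by Sh2d1a, which brings in the kinase FYN. CD48 is different, since it has no cytoplasmic tail and is held in the membrane by a lipid anchor. In mouse bone marrow CD150, the product of Slamf1, marks long-term HSCs, and CD48 appears on many multipotent and committed progenitors. A CD150+ CD48- gate therefore enriches the HSCs. By the definitions of the study, some multipotent progenitors, those that carry CD34, are also CD150+ and CD48-. The gate reads protein on the cell surface, whereas the values here are RNA.

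In the mouse genome (GRCm38, GENCODE M21 annotation) 7 of the 9 genes lie side by side within 394.0 kb of chromosome 1, in the order Cd244a, Ly9, Slamf7, Cd48, Slamf1, Cd84 and Slamf6. Cd48 occupies chr1:171682009-171705258 and Slamf1 chr1:171767127-171801184, both on the plus strand. Slamf9 lies 522 kb beyond Slamf6 on the same chromosome, and Sh2d1a lies on chromosome X. The 250 bases before the transcription start are shown for Cd48, for the gene of its binding partner and for the CD150 gene. They follow RefSeq (GRCm38.p6, plus strand, Cd48 at chr1:171681742-171681991, Cd244a at chr1:171558943-171559192 and Slamf1 at chr1:171766882-171767131). Capitals mark the letters GGAAG on either strand, a longer form of the GGAA core bound by ETS factors. The shorter GGAA was not counted.
Cd48: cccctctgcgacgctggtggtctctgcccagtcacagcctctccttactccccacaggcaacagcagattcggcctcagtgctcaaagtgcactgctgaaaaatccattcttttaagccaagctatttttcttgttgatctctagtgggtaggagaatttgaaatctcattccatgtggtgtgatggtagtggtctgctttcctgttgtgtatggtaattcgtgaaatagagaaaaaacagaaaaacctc
Cd244a: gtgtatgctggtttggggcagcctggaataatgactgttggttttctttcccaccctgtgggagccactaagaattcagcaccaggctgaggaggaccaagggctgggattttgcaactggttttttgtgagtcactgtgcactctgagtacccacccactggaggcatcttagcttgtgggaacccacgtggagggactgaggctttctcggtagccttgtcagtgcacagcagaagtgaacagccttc
Slamf1: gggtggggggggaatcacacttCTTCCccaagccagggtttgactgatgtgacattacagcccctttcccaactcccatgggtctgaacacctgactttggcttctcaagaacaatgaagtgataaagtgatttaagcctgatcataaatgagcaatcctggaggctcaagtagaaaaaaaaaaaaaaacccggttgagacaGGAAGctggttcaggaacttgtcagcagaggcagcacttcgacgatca
The Slamf1 stretch held 2 such matches and the stretches of Cd48 and Cd244a held 0. Of 7 members with a RefSeq entry 3 held a match, and 64.1% of all 32851 promoter stretches of the same length did. The AP-1 letters TGANTCA occurred in 3 of the 7 members, Cd244a among them, against 6.75% of all stretches, and the E-box letters CANNTG in 7 of 7 against 66.2%. These are letter matches in a fixed window and carry no measurement of binding.

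Counts per library totalled 3058690 to 4548795 in CTL and 3500215 to 4315029 in CKO, so that 1 count was worth 0.219 to 0.334 CPM, the unit used below, in which counts are scaled to a common library total after TMM normalization. The targeted gene was used to check the labels. Cited2 stood at 101.3 to 221.6 CPM in the CTL libraries and at 3.80 to 8.30 CPM in 4 CKO libraries. In the library labelled CKO 3 it was at 120.1 CPM, inside the CTL range. By the edgeR test described below, the log2 fold change of Cited2 was -2.51 ± 0.94 (SE, adjusted p = 0.328). Without the library labelled CKO 3 it was -4.92 (adjusted p = 1.82e-06, edgeR). That library was kept as CKO except where its omission is stated. The genes for the positive antigens of the gate were high in every library, with Kit at 473.3 to 674.5 CPM and Ly6a, which encodes Sca1, at 121.0 to 197.3 CPM. For CKO over CTL the log2 fold change of Kit was -0.21 ± 0.08 (SE; adjusted p = 0.29, edgeR). That of Ly6a was 0.30 ± 0.12 (adjusted p = 0.321, edgeR). Procr, also on the list of sort genes, was at -0.23 ± 0.16 (adjusted p = 0.576, edgeR). Of 14 T cell markers 10 stayed under 5 CPM in all libraries. The 14 summed to 45.8 to 56.9 CPM in CTL and 42.3 to 59.9 CPM in CKO, with Lck giving the most (means 26.7 and 27.2 CPM). The sum of 9 neutrophil genes was 37.5 to 376.0 CPM in CTL and 59.4 to 223.0 CPM in CKO. Of the neutrophil genes Ly6g was at 0 in all libraries, and S100a8 stood at 13.7 to 69.6 CPM in CTL and 22.8 to 50.3 CPM in CKO.

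Cd48, the gene of the antigen that the gate excludes, was the only member called by the main test, edgeR. Its level was 21.7, 17.9, 26.5, 14.4 and 27.4 CPM in CTL 1 to 5 and 56.1, 45.3, 38.5, 44.4 and 60.8 CPM in CKO 1 to 5. Every CKO library lay above every CTL library, with the library labelled CKO 3 nearest to the controls. Cd48 RNA rose 2.27-fold (1.18 ± 0.20 on the log2 scale, SE, n = 5 per genotype). The quasi-likelihood test of edgeR, adjusted by Benjamini-Hochberg over 14165 genes, gave an adjusted p = 0.0264. Without the library labelled CKO 3 the log2 fold change was 1.26 (adjusted p = 0.0156, edgeR). The call was lost when counts were adjusted for GC content and transcript length (log2 fold change 1.04, adjusted p = 0.174, edgeR), and also when any of 6 single libraries was left out (CTL 1, 2 or 4 and CKO 1, 2 or 5; log2 fold change 1.06 to 1.21, adjusted p up to 0.105, edgeR).

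**Figure D1:**
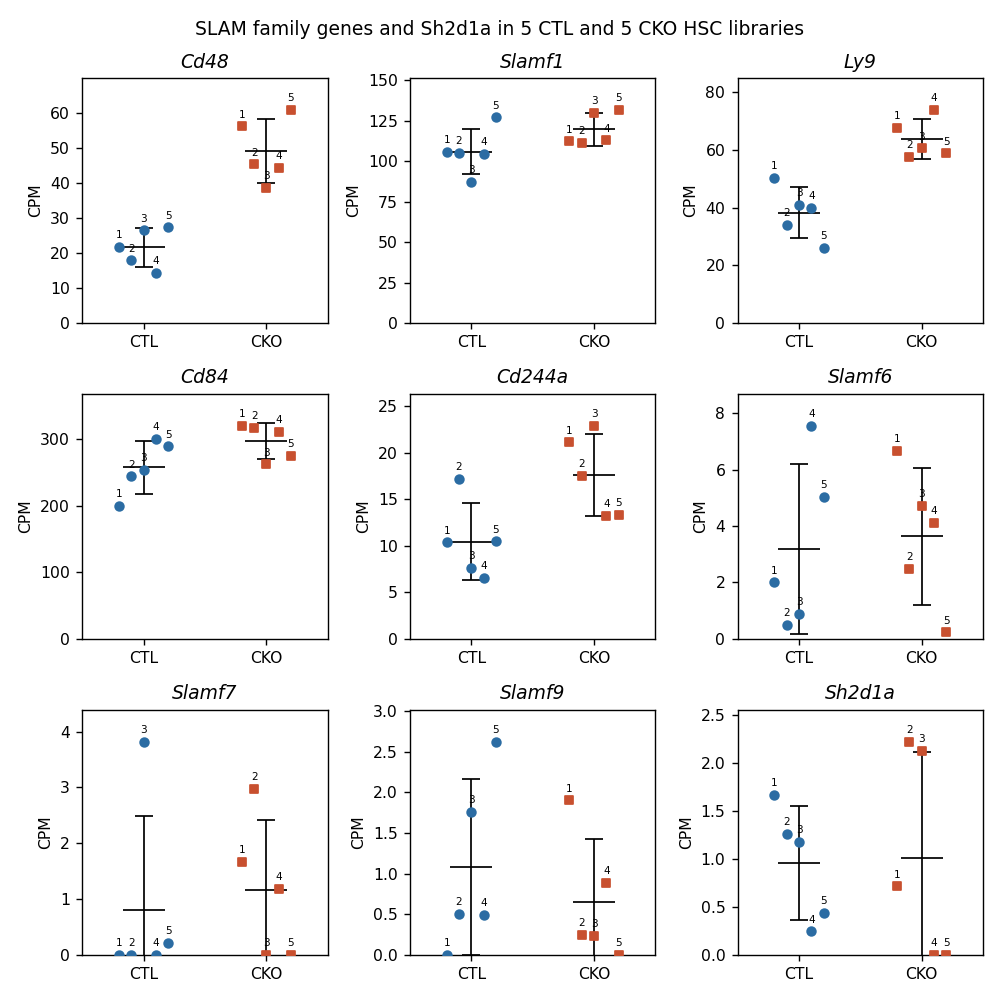
Level in CPM (linear axes from 0, a separate scale per gene) of the 9 genes in each library. Points are single libraries with their replicate number, and the bar and whiskers are the mean ± SD of 5 libraries. Cd48 and Ly9 show no overlap between CTL and CKO, whereas the points of the other 7 genes overlap.

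Slamf1, which encodes the CD150 antigen that the gate requires, did not pass the test. CTL 1 to 5 held 106.0, 105.1, 87.3, 104.8 and 127.1 CPM and CKO 1 to 5 held 112.4, 111.3, 130.0, 112.9 and 131.8 CPM. The groups overlapped through CTL 5, and the log2 fold change was 0.17 ± 0.10 (SE; adjusted p = 0.509, edgeR). With the GC and length adjustment it was 0.01. Per kilobase of gene length, Cd48 stood at 0.485 ± 0.146 of the Slamf1 level in CTL and at 0.968 ± 0.181 in CKO (SD, n = 5). The lowest CKO ratio, 0.698 in the library labelled CKO 3, lay just below the highest CTL ratio, 0.713 in CTL 3.

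Ly9 encodes CD229, a receptor that binds itself. CTL 1 to 5 held 50.2, 34.1, 40.9, 40.0 and 26.0 CPM and CKO 1 to 5 held 67.5, 57.6, 60.5, 73.8 and 58.8 CPM. The groups did not overlap, yet the log2 fold change of 0.74 ± 0.16 missed the threshold (SE; adjusted p = 0.0781, edgeR). The Wald test of DESeq2 called it (log2 fold change 0.75, adjusted p = 0.00283). Ly9 lies on the strand opposite to Cd244a within the same stretch, and no exons of the pair overlap.

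Cd244a encodes 2B4, the receptor for CD48. It stood at 10.4, 17.2, 7.64, 6.58 and 10.5 CPM in CTL 1 to 5 and at 21.2, 17.6, 22.9, 13.2 and 13.4 CPM in CKO 1 to 5. CTL 2 reached into the CKO range, and the log2 fold change of 0.75 ± 0.30 did not pass the test (SE; adjusted p = 0.318, edgeR). Cd84, another self-binding receptor, had the largest CPM of the family, at 200.0, 244.5, 254.3, 301.0 and 289.7 in CTL and 320.6, 317.1, 262.4, 311.6 and 275.6 in CKO. Its groups overlapped, with a log2 fold change of 0.20 ± 0.10 (SE; adjusted p = 0.425, edgeR) that came to 0.02 with the GC and length adjustment.

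The remaining members were close to the limit of detection. Slamf6, best known from T and NK cells, ranged from 0.505 to 7.56 CPM in CTL and from 0.230 to 6.66 CPM in CKO, with a log2 fold change of 0.17 ± 0.79 (SE; adjusted p = 0.952, edgeR). Its sign turned under several alternatives, so no direction can be read. Slamf7, Slamf9 and Sh2d1a did not pass the filter on low counts and were not fitted. Slamf7, known from plasma cells and NK cells, gave 14 counts in all CTL and 23 in all CKO libraries, Slamf9 gave 22 and 13, and Sh2d1a gave 17 and 21. Exact two-sided permutation tests on their CPM gave p = 0.683, 0.484 and 0.921 in that order (n = 5 per genotype). Exons of Sh2d1a overlap Tenm1 on the other strand and exons of Slamf7 overlap Gm37787, and the strand setting of the counting was not given in the sources used here, so these low counts are uncertain.

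Per kilobase of gene length the 9 genes fell into the same order in both genotypes. Cd84 led, at 41.2 ± 6.41 CPM per kb in CTL and 47.6 ± 4.26 in CKO (SD, n = 5), and Slamf1 followed at 39.5 ± 5.25 and 44.5 ± 3.82. These neighbours did not differ beyond their spread in either genotype. Cd48 came next at 18.9 ± 4.84 and 42.9 ± 8.02 CPM per kb, well below Slamf1 in CTL and within its spread in CKO. Ly9 was close to Cd48 in CTL, at 15.6 ± 3.64, and below it in CKO, at 26.0 ± 2.80. Cd244a stood apart at 2.78 ± 1.10 and 4.70 ± 1.18 CPM per kb, and the other 4 genes had means from 0.203 to 1.49 with ranges that overlapped. On this scale Cd48 stood at the percentile 54.6 of all tested genes in CTL and 77.5 in CKO.

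**Figure D2:**
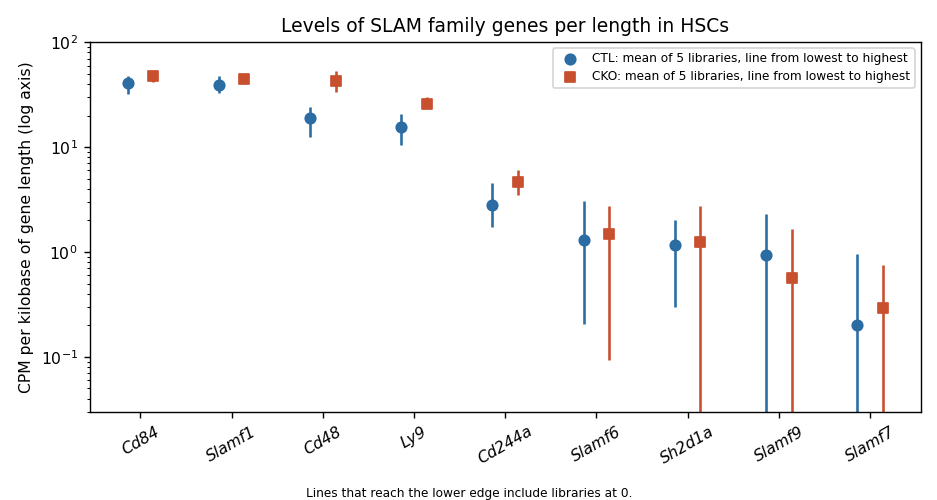
Level per gene length (CPM per kilobase, log axis) of the 9 genes, ordered by level. Symbols are means of 5 CTL or 5 CKO libraries and lines run from the lowest to the highest library. The order is the same in both genotypes, and the Cd48 mean moves from 18.9 to 42.9.

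Of the 9 members 6 passed the filter on low counts. One rule called a gene at an adjusted p under 0.05 and a fold above 1.2, and it called 1 of these 6 higher in CKO, against 0.120% of all tested genes. At an unadjusted p under 0.05, 3 were higher (Cd48, Ly9 and Cd244a), against 5.80%. In 2 (Cd48 and Ly9) every CKO library exceeded every CTL library, against 1.35%. DESeq2 called 2 higher, against 1.04%. All 6 fitted changes were above 0 in the main fit, with a median log2 fold change of 0.47 against 0.007 over all tested genes. Slamf8, a further receptor of the family that the rule does not include, was tested too and stood at -0.36 ± 0.47 (SE; adjusted p = 0.797, edgeR). Members share a locus and the same mice and are not independent of each other. They were chosen with earlier results of these data known, so the shares are descriptions and not an independent test.

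The neighbours of the SLAM genes were read in the same fit. Within 250 kb on either side of the members on chromosome 1, 23 further protein-coding genes, Slamf8 among them, were tested and 0 were called by edgeR, against 0.226% of all tested genes in either direction, with log2 fold changes from -0.79 to 0.57 and a median of -0.11. At an unadjusted p under 0.05 there were 2, Arhgap30 at 0.31 and Klhdc9 at -0.56, where 12.9% of all tested genes passed, and the smallest adjusted p was 0.247 (edgeR). Gm10521, the 1 further protein-coding gene that starts inside the cluster, had a log2 fold change of 0.57 ± 0.77 (SE). The 3 members with the largest changes, Cd244a, Ly9 and Cd48, start next to one another among the tested genes, and Slamf1, Cd84 and Slamf6 follow on one side, with Gm10521 between the last pair.

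**Figure D3:**
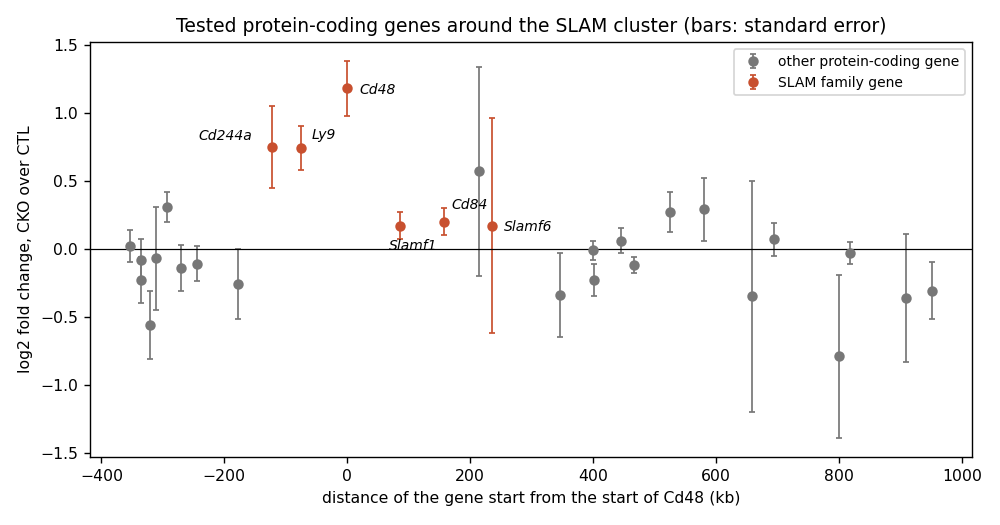
Log2 fold change (CKO over CTL, with standard error) of each tested protein-coding gene around the SLAM cluster against the distance of its start from the start of Cd48 in kb. Orange points are SLAM members and grey points other genes. Cd48 at 1.18 is the highest point, and the 23 grey points lie between -0.79 and 0.57.

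A list of 40 SLAM signaling genes was read beside the members. It held kinases, phosphatases, adaptors and exchange factors, together with the related receptor genes Slamf8 and Cd2, and 35 passed the filter. By edgeR 0 were called, by DESeq2 also 0 (2.29% of all tested genes in either direction), and 3 had an unadjusted p under 0.05. Over all tested genes the edgeR shares were 0.226% and 12.9%, so counts this low in a list of 35 are near the background and are not a result about the list. Nfkb1, an NF-kB subunit, was at a log2 fold change of 0.24, Bcl10, which links receptors to NF-kB, at -0.27, and the adaptor gene Sh3bp2 at -0.37. Next in order of p came the kinase gene Pak1 at 0.17, the adaptor gene Nck1 at 0.23 and the phospholipase gene Plcg1 at -0.24, all with an unadjusted p above 0.05. Fyn, the kinase that SAP recruits, was present at 39.7 to 57.8 CPM in CTL and 48.2 to 65.6 CPM in CKO (log2 fold change 0.25 ± 0.15, SE; adjusted p = 0.505, edgeR), beside the near absence of Sh2d1a counts. The related adaptor genes Sh2d1b1 and Sh2d1b2 stayed at or below 4.52 CPM. The median over the 35 was -0.04.

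Markers of progenitors were read beside Cd48. Of 19 genes listed for CD48+ progenitors 15 passed the filter, with 9 higher and 6 lower in CKO and a median log2 fold change of 0.27. At an unadjusted p under 0.05, 5 were higher (Gfi1, Plac8, Il1r1, Satb1 and Ms4a3) against 5.80% of all tested genes, and 2 were lower (Flt3 and Prtn3) against 7.08%. The summed level of the list, to which Cd34 gave the most, ran from 915.0 to 1380.0 CPM in CTL and from 915.0 to 1210.0 CPM in CKO. Gfi1, a transcription factor of myeloid progenitors, was at a log2 fold change of 1.24 ± 0.32 (SE; adjusted p = 0.123, edgeR), with the library labelled CKO 3 inside the CTL range. Ms4a3, a gene of granulocyte and monocyte progenitors, was at 1.17 ± 0.46 (adjusted p = 0.314, edgeR), and CTL 5 was its highest library. Il1r1, the interleukin-1 receptor, was at 0.71 ± 0.22 with no overlap between the groups, Satb1 at 0.75 ± 0.29 and Plac8 at 0.33 ± 0.10. The granule protease genes Elane and Prtn3 were at -1.47 ± 1.02 and -0.25 ± 0.11, and the peroxidase gene Mpo at -0.63 ± 1.12. Elane and Mpo were by far highest in CTL 5 (62.4 and 189.7 CPM) and CKO 5 (16.4 and 108.3 CPM). Their medians were similar, at 2.675 and 11.04 CPM in CTL and 2.646 and 12.29 CPM in CKO. No direction can be read from the log2 values of Elane and Mpo. Flt3, a receptor of lymphoid-primed progenitors, was lower in CKO at -0.36 ± 0.11 (adjusted p = 0.194, edgeR), and Cd34 was at -0.04 ± 0.07. Of the lineage antigen genes that the sort depletes, Itgam, which encodes CD11b, was at 9.85 to 26.5 CPM in CTL and 22.4 to 62.1 CPM in CKO (log2 fold change 0.95 ± 0.31; adjusted p = 0.23, edgeR). The progenitor genes named here other than Flt3 and Cd34, and the mast cell genes named next, were picked from the lists after their values were seen.

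Among the markers of mast cells and basophils, the 8 genes summed to 38.5 to 63.2 CPM in CTL and 75.4 to 148.0 CPM in CKO. Cpa3 gave the most to this sum, with means of 36.6 CPM in CTL and 72.0 CPM in CKO, followed by Fcer1a in CKO at 31.3 CPM. Of the 8 genes 3 passed the filter on low counts. Fcer1a, the IgE receptor chain, had a log2 value of 2.77 ± 0.58 for CKO over CTL (adjusted p = 0.0729, edgeR) and Cpa3 at 0.98 ± 0.23 (adjusted p = 0.0986, edgeR). The protease gene Mcpt8 had means of 1.69 CPM in CTL and 1.58 CPM in CKO, and 4 of the 8 markers stayed under 5 CPM in all libraries. In bulk RNA a larger share of Cd48-expressing cells and more Cd48 RNA per cell cannot be told apart, and the part of these markers in the Cd48 difference was not tested.

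**Figure D4:**
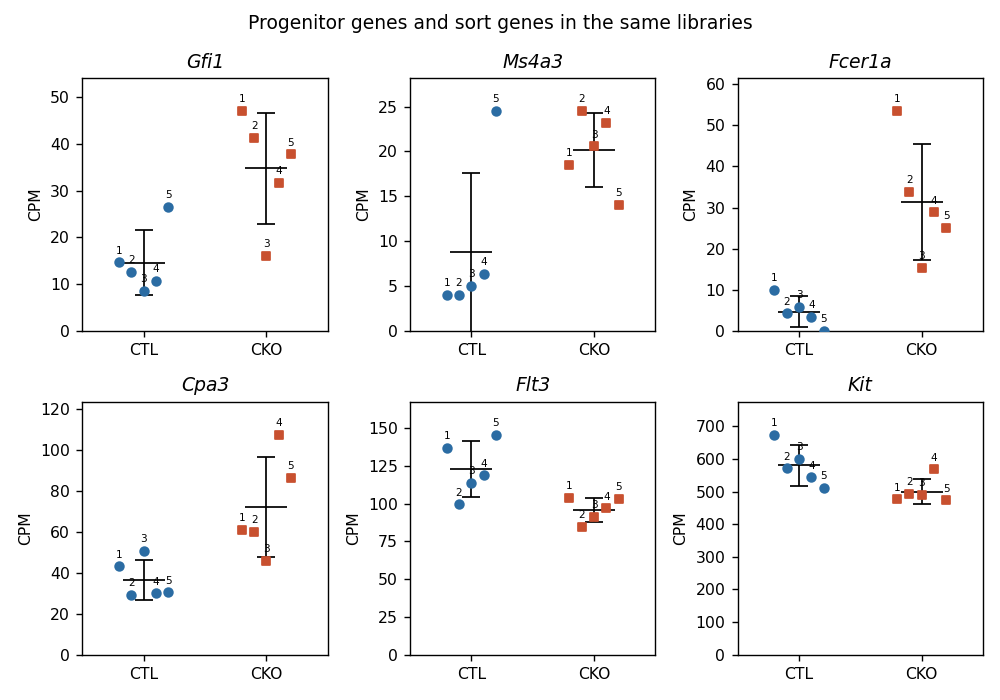
Level in CPM (linear axes from 0) of 4 genes of progenitors or mast cells (Gfi1, Ms4a3, Fcer1a and Cpa3) and of Flt3 and Kit in the same libraries. Points are single libraries with their replicate number, with the mean ± SD of 5 libraries. Fcer1a does not overlap between genotypes, Gfi1, Ms4a3 and Cpa3 overlap through 1 library each, and Flt3 and Kit overlap.

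The genes most like Cd48 across the 10 libraries, by Pearson's r of log2 CPM over 14112 genes, were Gm16973 (r = 0.954), Nfatc3 (0.944), Taok1 (0.941), Gm16523 (0.934) and Cenpj (0.932). Their log2 fold changes lay between 0.42 and 0.68, and 0 of the 5 were called by edgeR. For Slamf1 they were Dctn4 (0.922), 4930579K19Rik (0.899), Sfxn4 (0.891), Brip1 (0.890) and Anapc15 (0.873). The 10 libraries fall into the 2 genotypes, so the likeness to Cd48 includes the difference between them, and these values are descriptions.

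**Figure D5:**
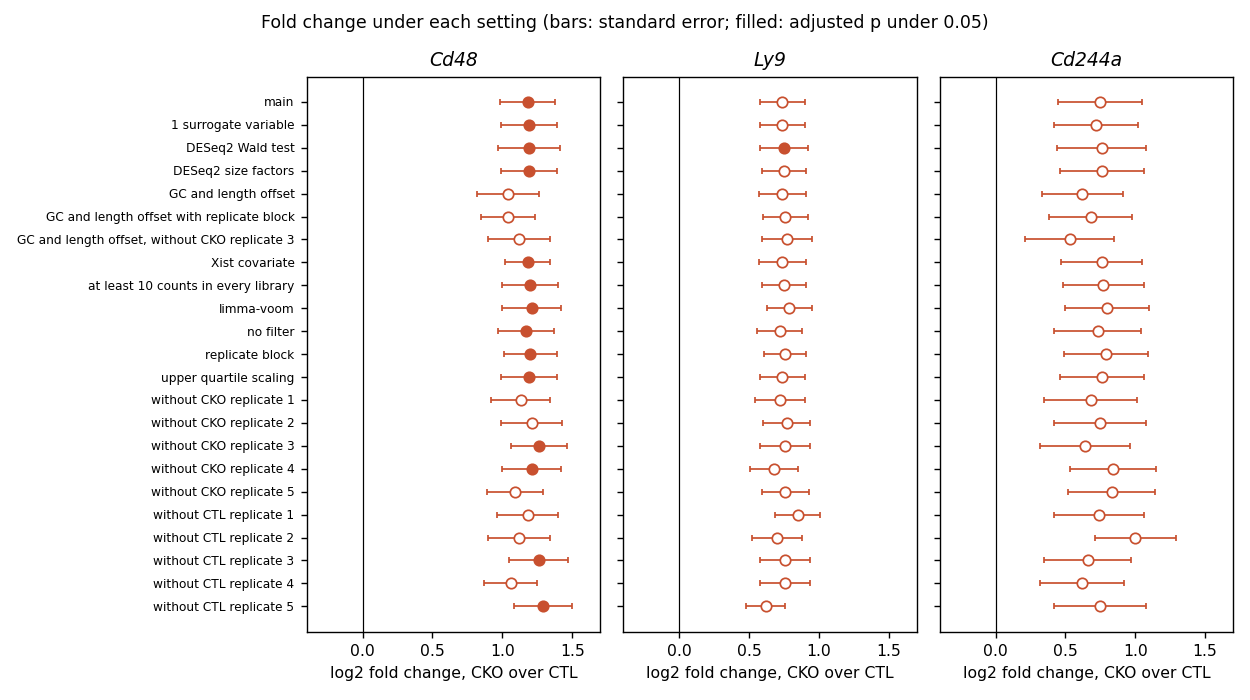
Log2 fold change (CKO over CTL, with standard error) of Cd48, Ly9 and Cd244a under the main setting and each alternative. Filled points have an adjusted p under 0.05. Cd48 stays between 1.04 and 1.29 while its call comes and goes, and Ly9 is filled for DESeq2 alone.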

How the data were processed

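RNA-seq was measured in 5 CTL and 5 CKO HSC libraries, grouped by title. Reads were mapped by the authors to GRCm38 (mm10) using HISAT2, and they deposited whole-number counts per gene symbol, made with Rsubread, together with gene lengths; strand setting and multimapping are not given in the sources used here. From the deposited counts, edgeR 4.0.16 (filterByExpr, TMM, robust quasi-likelihood fit, limma 3.58.1, R 4.3.3) tested 14165 of 26146 genes. Calls needed an adjusted p under 0.05 and a fold above 1.2, the thresholds of the study, whose own test was DESeq2. CPM used TMM-scaled totals. Table totals of 3058690 to 4548795, limit the precision at low counts; they lie more than an order of magnitude below the sequencing depth stated in the methods, and whether duplicate reads were removed is not given in the sources used here. Alternatives included DESeq2 1.42.0, limma-voom, sva 3.50.0, other scalings and filters, a replicate block, an offset for GC content and length, an Xist covariate and leaving out each library. Scripts were tested on simulated data. The members and all gene lists were chosen with earlier results of these data known. Named were all members, Cited2, the sort genes, called or smallest-p signaling genes, called and adjacent neighbours, and the 5 genes most like Cd48 and Slamf1 at a mean log2 CPM of at least 1. The p-values of the fits set the difference between genotypes against the spread between mice. Those of the permutation tests set it against all reassignments of the libraries to the genotypes. 1 gene of the progenitor list is not reported here and was left out of the sums of that list.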

Additional observations from a re-analysis of the deposited data

Results flagged for a closer look

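In groups of 5, a library whose gap to its nearest neighbour took more than 0.71 of the range of the group (Dixon's 95% criterion) was looked for in 20 groups, and chance picks out about 1 in 20 of such groups. Slamf7 in CTL 3 stood at 3.82 CPM, against 0 in 3 CTL libraries. Cited2 in the library labelled CKO 3 stood at 120 CPM, far from the other CKO libraries.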

How the results depend on the processing

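Cd48 kept its direction under all 22 alternatives, and its call under 13 of them. With the GC and length offset its log2 fold change was 1.04 (adjusted p = 0.174, edgeR), with the offset and a replicate block 1.04 (0.123), and with the offset and without CKO 3, an alternative added after the data were seen, 1.12 (0.0918), and 0 members were called in each of these 3. Leaving out 1 library at a time gave 1.06 to 1.29 (adjusted p = 0.0156 to 0.105, edgeR) and 0 to 1 called members; such fits hold fewer samples. DESeq2 and an adjusted p under 0.1 each called 2 members (Cd48 and Ly9), and an adjusted p under 0.01 called 0. Over all genes the main fit called 17 higher and 15 lower, DESeq2 148 and 177, the offset 5 and 3, and an adjusted p under 0.1 gave 53 and 74. Slamf6 turned to -0.36 with 1 surrogate variable, -0.01 with the offset, -0.11 with the offset and without CKO 3, and -0.17, -0.11 and -0.07 without CKO 1, CTL 2 and CTL 3; leaving out single libraries spanned -0.17 to 0.76. Without division by length Cd48 was at 0.41 of Slamf1 in CKO, against 0.964 of the mean per length. Signaling genes gave 0 calls throughout. The causes were not tested.

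With the replicate block Cd48 was at 1.20 (adjusted p = 0.0427, edgeR), and 15 genes were called higher and 9 lower. Same-numbered libraries correlated at -0.0947 to 0.208 in their deviations from the group means. CTL 5 and CKO 5 were each other's closest partner (r = 0.193). The labels state no pairing, and correlations of expression cannot decide whether same-numbered mice were paired.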
